A study of Mus musculus with 47 samples.

Results

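The insulin-like growth factor (IGF) ligands, receptors and binding proteins are described here in dox-inducible lines of C2C12, an immortalized mouse myoblast line. The members were chosen by gene symbol: the ligand genes *Igf1* and *Igf2*, the receptor genes *Igf1r* and *Igf2r*, and the binding protein genes *Igfbp2*, *Igfbp3*, *Igfbp4*, *Igfbp5*, *Igfbp6* and *Igfbp7*. All 10 were found among the 45706 genes of the count tables. The choice was made with earlier results of these data known. Counts of called members are therefore descriptions and not a test of the family. IGF1 and IGF2 act mainly through the receptor tyrosine kinase IGF1R, while IGF2R binds IGF2 and carries it to lysosomes. Most binding proteins hold the ligands outside the cell with high affinity, which can withhold them from the receptor or keep them nearby, and IGFBP7 binds IGFs only weakly. In skeletal muscle, IGF signals are known to promote growth of myoblasts, their differentiation and the growth of myotubes.

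The study asked how the myogenic transcription factor MyoD1 and the adhesion molecules Cdh23 and Mcam act in differentiating C2C12 cells. PolyA RNA was sequenced in 47 libraries of 16 groups, with 3 libraries in each group and 2 in the dox-treated myoblast-enriched group. Each line carried a transgene under a dox-responsive promoter, placed in the genome with PiggyBac, and the MyoD1 line was a polyclonal population. The C2C12 iMyoD1 line kept its endogenous MyoD1 and could be induced to make Halo-tagged MyoD1, while C2C12 iCdh23 and C2C12 iMcam carried Cdh23 or Mcam in the same way.

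Every group received either dox (1 µg/mL) or vehicle. No library came from a line without a transgene, so dox itself and the induced gene cannot be told apart. C2C12 iMyoD1 cells were taken in growth medium, called 0 h, after 24 h of treatment, and after 24, 48 or 120 h in differentiation medium, which contains horse serum, insulin, transferrin and selenium, with dox given from its start. At 120 h the cells were taken as whole cultures, or were trypsinized and passed through a 40 µm strainer. Cells that passed formed the myoblast-enriched fraction, and the material kept back formed the myotube-enriched fraction. C2C12 iCdh23 and C2C12 iMcam were taken at 48 h of differentiation. The differentiation medium thus contains added insulin, a ligand of a related receptor, in both treatments.

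The values are estimated counts from salmon, as the authors deposited them, added up by gene and rounded. Libraries held from 15066338 to 50950674 counts (median 22837926). Levels are counts divided by the library's scaled total (CPM), from edgeR's trimmed mean of M values (TMM). Levels of different members are compared only per length, as counts per transcript length over their sum in the library (TPM). The gene with the highest CPM in a marker list is also named, and CPM takes no account of length. The libraries at 0 and 24 h came in another table than those at 48 and 120 h, and the fractions and the Cdh23 and Mcam lines in a further table. The labels name a batch, RNAseq_v2, for the later tables and none for 0 and 24 h, so differences in level between these sets of libraries, the step from 24 to 48 h included, may be those of the batch, and the data cannot separate them. Replicates of a group came from the same line, so each p measures the spread between these libraries.

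Libraries of some groups stood apart. Across genes within a group, log2 CPM of the myotube-enriched dox libraries correlated at only 0.875, 0.908 and 0.931. In the myotube-enriched vehicle group, replicate 2 correlated with the others at 0.959 and 0.962, and replicates 1 and 3 with each other at 0.980. In the myoblast-enriched vehicle group, replicate 2 correlated less with replicate 1 (0.975) than replicate 3 did (0.988). Replicate 3 differed from replicates 1 and 2 in the vehicle groups of the Cdh23 line (0.969 and 0.981) and the Mcam line (0.977 and 0.982), where replicates 1 and 2 correlated at 0.992 and 0.993. Results for these lines were therefore also computed without replicate 3 of every group, an alternative chosen after the values were seen, and each of the 30 member calls stayed as it was.

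The markers of the labelled cell type were present. The myoblast genes *Myod1*, *Myf5*, *Des* and *Cdh15* summed to between 294 and 3328 CPM in the 47 libraries. *Des* had the highest CPM of them in all groups. The 8 myotube genes *Myog*, *Mymk*, *Mymx*, *Myh3*, *Ckm*, *Acta1*, *Tnnt3* and *Ttn* summed to between 1.20 CPM at 0 h and 21449 CPM in a myotube-enriched vehicle library. Markers of other cell types were low everywhere. The adipocyte genes *Adipoq*, *Plin1* and *Fabp4* summed to at most 0.250 CPM, and the neuron genes *Rbfox3* and *Snap25* to at most 0.197 CPM. The osteoblast genes *Bglap*, *Sp7* and *Ibsp* reached 0.886 CPM, and the endothelial genes *Pecam1*, *Cdh5* and *Kdr* 0.929 CPM. The blood genes *Ptprc*, *Cd68* and *Hbb-bs* reached 4.04 CPM, with *Cd68* the highest in CPM in all groups. The epithelial genes *Epcam*, *Cdh1* and *Krt5* reached 4.79 CPM, with *Cdh1* the highest in CPM in all groups. *Hbb-bs*, *Ibsp*, *Snap25*, *Rbfox3*, *Plin1*, *Krt5*, *Adipoq*, *Epcam* and *Ptprc* were each at 0 in at least 9 of the 16 groups. Their part in the results was not tested.

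The induced genes gave a partial check of the labels. *Myod1* counts in the iMyoD1 line did not rise with dox at any time. They fell in whole cultures at 120 h, from 305, 303 and 231 CPM to 82.3, 97.9 and 95.8 CPM, by 1.62 on the log2 scale (SE 0.126), and at 48 h they were 391, 389 and 382 CPM with vehicle and 295, 323 and 300 CPM with dox. It is not stated if salmon's reference held the transgene, so the counts cannot check that label. *Cdh23* stood at 369.6, 348 and 451 CPM with vehicle in the Cdh23 line and at 568, 426 and 464 CPM with dox, where groups overlap and no change was called (log2 fold change 0.32, SE 0.153, edgeR adjusted p = 0.102). All other groups had *Cdh23* between 0.142 and 57.2 CPM, so the Cdh23 line stands out by this level. With dox in the Mcam line, *Cdh23* also rose, by 2.76 on the log2 scale. *Mcam* in the Mcam line was 19.8, 17.1 and 17.3 CPM with vehicle and 69.0, 70.2 and 74.7 CPM with dox, without overlap. *Mcam* was also higher with dox in the Cdh23 line, by 2.97 on the log2 scale, and in the iMyoD1 line at 0 h (1.29), 24 h (2.72) and 120 h in whole cultures (4.14) and in the myoblast-enriched fraction (2.36). At 48 h in this line *Mcam* was 13.2, 12.5 and 12.2 CPM with vehicle and 25, 22.6 and 24.3 CPM with dox, without overlap and short of a 2-fold change (0.91, SE 0.0871). *Cdh23* rose with dox in the iMyoD1 line at 0 h (1.32), 24 h (3.64) and 48 h (1.05).

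*Igf1* (ENSMUSG00000020053, GRCm38 chromosome 10 from 87858265 to 87937042) encodes a secreted ligand of IGF1R. At 0 h its level was 5.56, 4.35 and 6.89 CPM with vehicle and 3.76, 1.84 and 3.09 CPM with dox. At 24 h it was 2.84, 2.77 and 2.49 CPM with vehicle and 2.59, 2.59 and 2.50 CPM with dox. By 48 h the iMyoD1 cultures held 73.5, 80.3 and 75.5 CPM with vehicle and 87.9, 84.9 and 78.3 CPM with dox. The early libraries were all below 7 CPM and the 48 h libraries all above 73 CPM, with the treatments overlapping at 24 and at 48 h. At 120 h the whole cultures had 114, 128 and 132 CPM with vehicle and 234, 192 and 194 CPM with dox, which do not overlap. The dox effect there was 0.72 on the log2 scale (SE 0.105, edgeR adjusted p = 5.67e-04), short of a 2-fold change.

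In the Cdh23 line, *Igf1* was 79.0, 119 and 127 CPM with vehicle and 17.5, 16.4 and 31.9 CPM with dox. Every dox library was below every vehicle library, and *Igf1* fell by 2.30 on the log2 scale (SE 0.298, edgeR adjusted p = 3.80e-04). The Mcam line had 133, 158 and 150.5 CPM with vehicle and 88.8, 97.9 and 182 CPM with dox. These groups overlap, through dox replicate 3, and the effect on *Igf1* was -0.23 (SE 0.254, edgeR adjusted p = 0.484). The effects in the Mcam and Cdh23 lines differed by 2.06 on the log2 scale (SE 0.429, edgeR adjusted p for the difference = 0.0113). In the 120 h fractions, *Igf1* ranged from 75.8 to 229.9 CPM, and the fractions overlapped under both treatments. Over the 16 groups the mean was highest in the dox whole cultures at 120 h (207 CPM) and lowest at 24 h with dox (2.56 CPM), and 12 of 15 neighbours in that order overlapped.

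*Igf2* (ENSMUSG00000048583, chromosome 7 from 142650766 to 142666816) encodes the other ligand and is an imprinted gene next to *H19*. At 0 h it was 0, 0.300 and 0.150 CPM with vehicle and 0.441, 0.145 and 0.0998 CPM with dox. At 24 h it was 0, 0.248 and 0.104 CPM with vehicle and 0.197, 0.111 and 0.106 CPM with dox. These 12 libraries held at most 11 counts of *Igf2* each, and a count of 0 allows up to 3, so differences among them were not detectable at this depth. The gene did not pass the filter on low counts in the tests within these times.

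The iMyoD1 cultures at 48 h had 191, 196 and 184 CPM of *Igf2* with vehicle and 157, 136 and 135 CPM with dox, which do not overlap. The difference of -0.43 on the log2 scale (SE 0.0731, edgeR adjusted p = 5.07e-04) was short of a 2-fold change. From 24 to 48 h, the summed normalised counts were 1552-fold higher with vehicle, from 11003 counts against 10, with a 95% exact counting interval from 844 to 3238. With dox they were 1051-fold higher, from 16020 counts against 15, with an interval from 637 to 1879. At 24 h with vehicle, 1 library (0.248 CPM) held most of the level, against 0 and 0.104 CPM, so the vehicle fold depends on it. Such intervals cover counting error only, and this step is also the change of batch and table.

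At 120 h, the whole cultures had 755, 748 and 780.4 CPM of *Igf2* with vehicle and 743, 719 and 718 CPM with dox. The groups did not overlap, but the difference was -0.08 on the log2 scale (SE 0.0743, edgeR adjusted p = 0.413). From 48 to 120 h, *Igf2* rose by 2.02 with vehicle (SE 0.0791, edgeR adjusted p = 2.85e-07) and by 2.36 with dox (SE 0.0963, edgeR adjusted p = 5.17e-10), with no overlap between times in either. In the fractions, *Igf2* ranged from 201 to 885 CPM.

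With dox in the Cdh23 line, *Igf2* was 5.55, 6.06 and 10.7 CPM, against 68.7, 113 and 214 CPM with vehicle. It fell by 4.15 on the log2 scale (SE 0.475, edgeR adjusted p = 2.10e-04), with all dox libraries below all vehicle libraries. The Mcam line had 13.6, 16.5 and 58.9 CPM with dox and 71.9, 122 and 193 CPM with vehicle. Again the groups did not overlap, and *Igf2* fell by 2.08 (SE 0.591, edgeR adjusted p = 0.0218). That call was lost without dox replicate 1 (-1.74) or dox replicate 2 (-1.79) of the Mcam line. Replicate 3 had the highest *Igf2* level in all 4 groups of these lines. The difference between the line effects was 2.04 (SE 0.823, edgeR adjusted p = 0.146) and was not called. With the replicate number as a block it became a call (1.81). In the Cdh23 line, though, residuals of same-number pairs did not all correlate over 0.1.

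The order of the *Igf2* group means ran from the 120 h vehicle whole cultures (761 CPM) through the dox whole cultures (727 CPM), the 4 fraction groups (609 to 330.5 CPM), the 48 h iMyoD1 groups (190.4 and 143 CPM) and the vehicle groups of the Cdh23 and Mcam lines (132 and 129 CPM) to the dox groups of the Mcam line (29.7 CPM) and the Cdh23 line (7.43 CPM). The 4 groups at 0 and 24 h came last, between 0.229 and 0.117 CPM, and overlapped with each other. Of the 15 neighbours in the order, 9 overlapped. *H19*, the untranslated neighbour of *Igf2* on chromosome 7, ranged from 31.4 CPM in a dox library of the Cdh23 line to 8877 CPM in a myotube-enriched vehicle library. With dox, *H19* fell by 5.97 on the log2 scale in the Cdh23 line (SE 0.535, edgeR adjusted p = 6.38e-05) and by 2.40 in the Mcam line (SE 0.336, edgeR adjusted p = 0.00125).

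Per length, the balance of the ligands differed between times. The step from 24 to 48 h is also the change of batch and table, and the ratios before it rest on few counts of *Igf2*. The ratio of *Igf2* TPM to *Igf1* TPM was between 0 and 0.226 in the 12 libraries at 0 and 24 h. At 48 h in the iMyoD1 line it was 5.50, 4.53 and 5.08 with vehicle and 4.19, 3.73 and 5.05 with dox. In the whole cultures at 120 h it was 9.11, 9.76 and 9.95 with vehicle and 5.08, 6 and 6.55 with dox, so that *Igf2* outweighed *Igf1* in every library from 48 h of this line. In the Cdh23 line the ratio was 1.49, 1.41 and 2.58 with vehicle and 0.650, 0.691 and 0.702 with dox. The Mcam line gave 0.952, 1.36 and 2.14 with vehicle and 0.304, 0.307 and 0.581 with dox, so the dox libraries of both lines held more *Igf1* than *Igf2* per length. Summed over both ligands, the iMyoD1 line had at most 4.36 TPM at 0 h and between 445 and 512 TPM in the whole cultures at 120 h, across that change of batch.

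**Figure D1:**
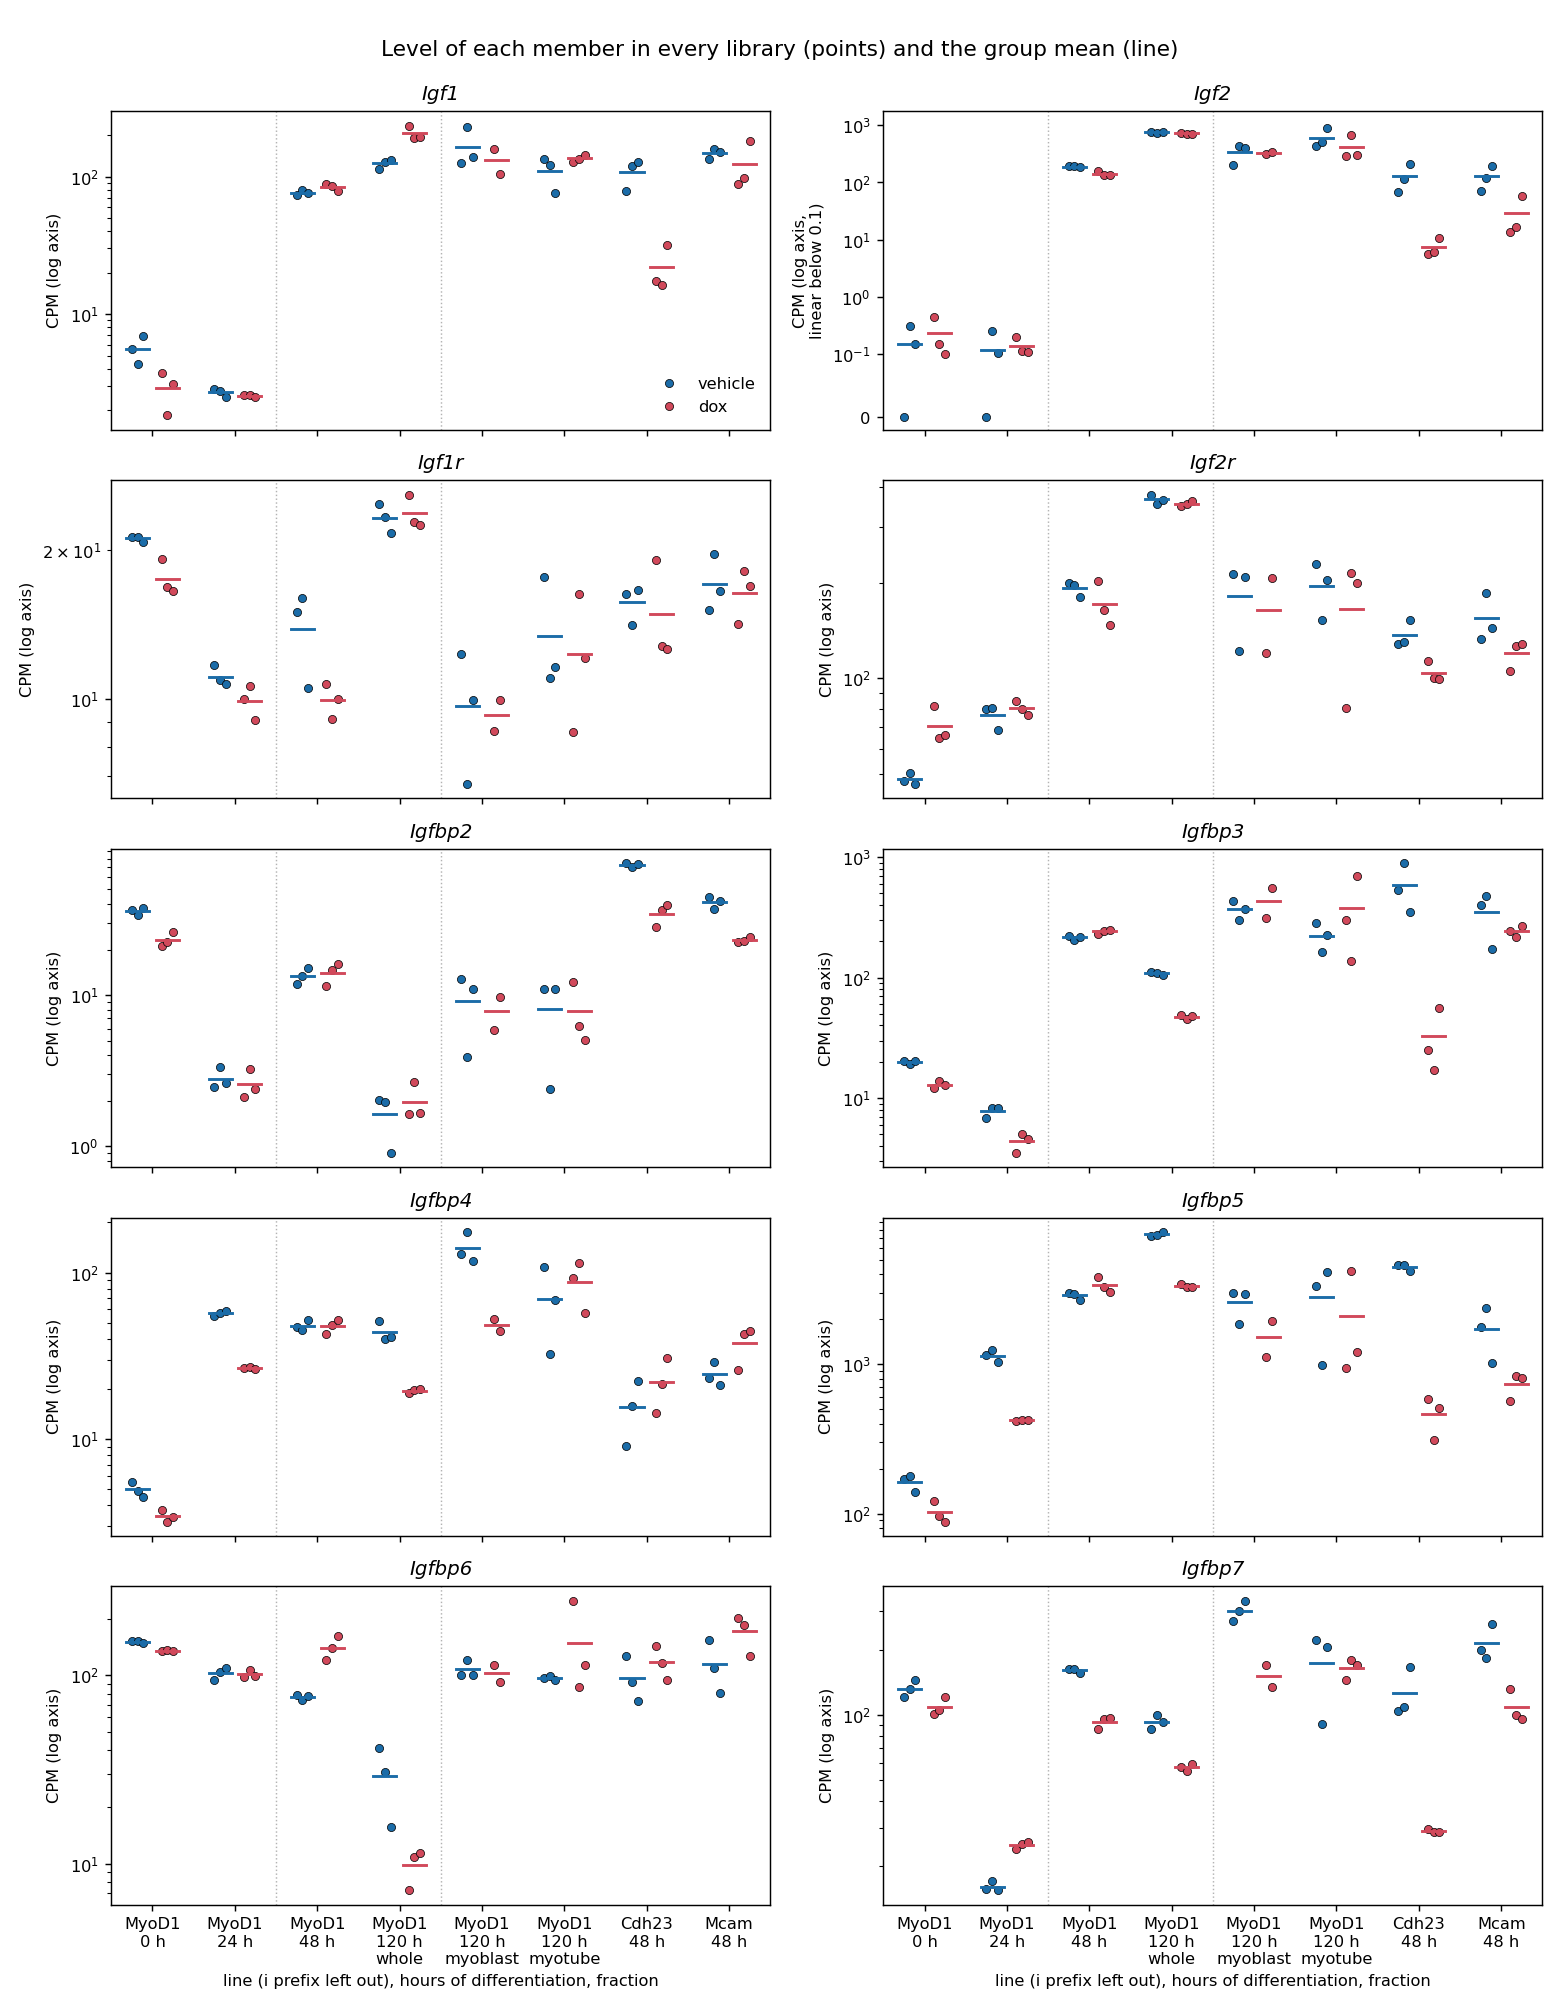
Level of each of the 10 members in CPM on a log axis (for Igf2 linear below 0.1), with a point for each of the 47 libraries and a line at the group mean, for vehicle (blue) and dox (red). The dotted lines divide the 3 count tables in which the libraries were deposited, and Igf2 lies below 0.5 CPM in all libraries at 0 and 24 h and at 5.55 CPM or more in all others.

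Both receptor genes varied less than the ligands. *Igf1r* (ENSMUSG00000005533, chromosome 7 from 67952827 to 68233668), the gene of the signalling receptor, had group means between 9.30 CPM in the myoblast-enriched dox fraction and 23.7 CPM in the dox whole cultures at 120 h. Of its 15 neighbours in order of level, 13 overlapped. At 0 h it was 21.3, 21.3 and 20.8 CPM with vehicle and 19.2, 16.8 and 16.5 CPM with dox, a difference of -0.26 on the log2 scale (SE 0.0832, edgeR adjusted p = 0.0242). At 48 h with dox it was 10.7, 9.12 and 10 CPM, and at 120 h in whole cultures 25.9, 22.8 and 22.5 CPM. It rose over that interval by 1.26 (SE 0.125, edgeR adjusted p = 7.57e-07), every 120 h library lying above every 48 h library. With vehicle the same interval gave 0.77 (SE 0.158, edgeR adjusted p = 0.00199), short of a 2-fold change. In the Cdh23 and Mcam lines, *Igf1r* effects of dox were -0.09 (SE 0.186) and -0.02 (SE 0.143), and the groups overlapped.

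*Igf2r* (ENSMUSG00000023830, chromosome 17 from 12682406 to 12769664), the gene of the receptor that clears IGF2, changed with time in the iMyoD1 line. With vehicle it was 47.3, 50.2 and 46.4 CPM at 0 h and 79.7, 80.7 and 68.6 CPM at 24 h. It was 200.1, 197 and 180.4 CPM at 48 h and 379, 354 and 365 CPM in whole cultures at 120 h, so that no neighbouring times overlapped. It rose by 1.34 from 24 to 48 h (SE 0.0731, edgeR adjusted p = 1.70e-09), while the steps before and after, 0.71 and 0.95, were short of a 2-fold change. With dox it was 81.5, 64.6 and 66.4 CPM at 0 h, above all vehicle libraries of that time, a difference of 0.57 (SE 0.0835, edgeR adjusted p = 1.15e-04). At 24 h the treatments overlapped, and the difference of the 2 dox effects was itself called (-0.57, SE 0.117, edgeR adjusted p = 0.00117). With dox the libraries at 0 and 24 h overlapped, a difference of 0.19 (SE 0.0817, edgeR adjusted p = 0.0564). *Igf2r* then rose with dox by 1.06 from 24 to 48 h and by 1.06 from 48 to 120 h in whole cultures, while the fractions at 120 h, of 80.7 to 229.7 CPM over both treatments, overlapped with the 48 h cultures. The calls of the dox steps were lost without 48 h dox replicate 1 (0.90) and without 48 h dox replicate 3 (0.96), respectively.

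Relative to the ligands, *Igf1r* was the member with the lowest TPM or next to lowest in all groups from 48 h, with group means between 1.42 and 4.49 TPM. *Igf2r* had between 10.3 and 86.2 TPM, its highest group being the dox whole cultures at 120 h.

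*Igfbp2* (ENSMUSG00000039323, chromosome 1 from 72824503 to 72852474) encodes a binding protein with a higher affinity for IGF2 than for IGF1. At 0 h with vehicle it was 36.3, 33.8 and 37.5 CPM, and with dox 21.1, 22.3 and 26.3 CPM. At 24 h it was 2.48, 3.33 and 2.60 CPM with vehicle and 2.11, 3.22 and 2.40 CPM with dox. All 24 h libraries were far below those at 0 h, and *Igfbp2* fell by 3.63 with vehicle (SE 0.117, edgeR adjusted p = 5.74e-12) and by 3.19 with dox (SE 0.143, edgeR adjusted p = 3.70e-10). From 24 to 48 h it rose to 11.8, 13.3 and 15.1 CPM with vehicle, and by 120 h it was 2.02, 1.95 and 0.904 CPM. The 120 h fractions, which came from another table, lay between 2.39 and 12.7 CPM, above the vehicle whole cultures.

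The Cdh23 line had the highest *Igfbp2* levels of the study, 74.5, 70.5 and 73.9 CPM with vehicle, and 28.0, 36.6 and 39.2 CPM with dox. With no overlap, it fell by 1.08 (SE 0.128, edgeR adjusted p = 2.46e-04), and the call was lost without dox replicate 1 (-0.95). In the Mcam line it was 44.6, 37.0 and 41.7 CPM with vehicle and 22.3, 22.7 and 24.4 CPM with dox, again without overlap, and the difference of -0.79 (SE 0.101, edgeR adjusted p = 8.79e-04) was short of a 2-fold change. The line effects differed by 0.26 (SE 0.16, edgeR adjusted p = 0.351), which was not called.

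*Igfbp3* (ENSMUSG00000020427, chromosome 11 from 7206086 to 7213923) encodes the main IGF carrier of blood. With vehicle the iMyoD1 line had 20.3, 19.1 and 20.1 CPM at 0 h, 6.78, 8.33 and 8.34 CPM at 24 h and 223, 207 and 219 CPM at 48 h. With dox it had 12.1, 13.8 and 12.8 CPM at 0 h, 3.51, 5.07 and 4.56 CPM at 24 h and 232, 242 and 250 CPM at 48 h. The dox libraries were thus lower at 0 and 24 h and higher at 48 h, each time without overlap and short of a 2-fold change, and at 48 h the effect of 0.14 (SE 0.0622, edgeR adjusted p = 0.0723) also missed the limit on p. In whole cultures at 120 h, *Igfbp3* was 111, 109 and 106 CPM with vehicle and 48.5, 45.1 and 48.1 CPM with dox. It fell with dox by 1.22 there (SE 0.0846, edgeR adjusted p = 6.61e-06), and the dox effects at 120 and 48 h differed by -1.36 (SE 0.0984, edgeR adjusted p = 2.50e-07).

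*Igfbp3* in the Cdh23 line was 530.2, 889 and 349 CPM with vehicle and 25.2, 17.0 and 56.3 CPM with dox, and fell by 4.16 on the log2 scale (SE 0.545, edgeR adjusted p = 4.04e-04), without overlap. The Mcam line had 401, 472 and 172 CPM with vehicle and 245, 217 and 268 CPM with dox, which overlap because vehicle replicate 3 lies below all dox libraries. The effect there was -0.48 (SE 0.329, edgeR adjusted p = 0.253), and the line effects differed by 3.66 (SE 0.667, edgeR adjusted p = 0.00583). In bulk samples such as these, fewer cells of a type and less RNA per cell cannot be told apart.

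*Igfbp4* (ENSMUSG00000017493, chromosome 11 from 99041244 to 99054392) encodes a binding protein that the protease PAPP-A cleaves. At 0 h it was 5.56, 4.90 and 4.49 CPM with vehicle and 3.76, 3.20 and 3.39 CPM with dox. At 24 h it was 55.1, 56.9 and 58.4 CPM with vehicle and 26.8, 27.1 and 26.2 CPM with dox. Both treatments were higher at 24 h, and it rose by 3.55 with vehicle (SE 0.0855, edgeR adjusted p = 4.68e-13) and by 2.95 with dox (SE 0.0929, edgeR adjusted p = 1.44e-11). The dox libraries at 24 h all lay below the vehicle libraries, and *Igfbp4* fell with dox by 1.12 (SE 0.0552, edgeR adjusted p = 9.10e-09). At 48 h the treatments overlapped, at 47.0, 45.2 and 51.7 CPM with vehicle and 42.7, 48.5 and 52.0 CPM with dox. At 120 h they were apart again, at 50.9, 39.7 and 40.8 CPM with vehicle and 18.8, 19.7 and 19.9 CPM with dox in whole cultures, a fall by 1.19 (SE 0.128, edgeR adjusted p = 9.72e-05).

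In the myoblast-enriched fraction, *Igfbp4* was 129.8, 175 and 118 CPM with vehicle, its highest group, and 52.6 and 44.7 CPM in the 2 dox libraries. It fell by 1.53 (SE 0.205, edgeR adjusted p = 0.0192). This call stayed without vehicle replicate 2, the highest library (-1.34), and was lost without vehicle replicate 3 (-1.64), dox replicate 2 (-1.66) or dox replicate 3 (-1.41), and in the fit with all groups of the table (-1.53). Without either dox library a single one remains, which is assumed to vary like the vehicle libraries. In the myotube-enriched fraction, *Igfbp4* was 108, 32.3 and 68.4 CPM with vehicle and 92.8, 114 and 57.0 CPM with dox, which overlap. In the Cdh23 line it lay between 9.08 and 30.5 CPM and in the Mcam line between 21.0 and 44.6 CPM, with overlap in both lines.

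*Igfbp5* (ENSMUSG00000026185, chromosome 1 from 72857932 to 72874884), which stands next to *Igfbp2* on the chromosome, encodes a binding protein that also attaches to extracellular matrix and is known to be induced in differentiating myoblasts. At 0 h it was 171, 179 and 140.4 CPM with vehicle and 121, 95.9 and 88.5 CPM with dox. At 24 h it was 1149.7, 1241 and 1032 CPM with vehicle and 420.5, 427 and 423 CPM with dox. The dox libraries were lower at both times without overlap, and at 24 h *Igfbp5* fell with dox by 1.46 (SE 0.0713, edgeR adjusted p = 8.44e-09). At 48 h the order was the other way, with 3022, 2946 and 2717 CPM with vehicle and 3837, 3306 and 3054 CPM with dox, a difference of 0.22 (SE 0.0961, edgeR adjusted p = 0.0774). The dox effects at 48 and 24 h differed by 1.67 (SE 0.12, edgeR adjusted p = 2.71e-08).

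In whole cultures at 120 h, *Igfbp5* was 7271, 7389 and 7696 CPM with vehicle and 3436, 3309 and 3294 CPM with dox. It fell with dox by 1.17 (SE 0.079, edgeR adjusted p = 5.59e-06). From 48 to 120 h it rose by 1.38 with vehicle (SE 0.0929, edgeR adjusted p = 3.01e-06), while with dox the times overlapped and the change was -0.01 (SE 0.102, edgeR adjusted p = 0.907). The Cdh23 line had 4594, 4616 and 4226 CPM with vehicle and 585, 310.2 and 507 CPM with dox, a fall by 3.26 (SE 0.244, edgeR adjusted p = 2.89e-05) with no overlap. In the Mcam line it was 1771, 2374 and 1021 CPM with vehicle and 566, 833 and 809.9 CPM with dox. It fell by 1.19 (SE 0.302, edgeR adjusted p = 0.0139), a call that was lost without vehicle replicate 2 (-0.89) or dox replicate 1 (-1.04) and in the fit with all groups of the table (-1.21). The line effects differed by 2.05 (SE 0.414, edgeR adjusted p = 0.00995), a call also lost in that fit (2.03).

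*Igfbp6* (ENSMUSG00000023046, chromosome 15 from 102144362 to 102149511) encodes a binding protein with a strong preference for IGF2. At 48 h it was 78.7, 74.0 and 77.5 CPM with vehicle and 120.2, 139 and 162 CPM with dox, a difference of 0.85 (SE 0.101, edgeR adjusted p = 3.93e-05) without overlap, short of a 2-fold change. In whole cultures at 120 h it was 41.1, 30.8 and 15.7 CPM with vehicle and 7.23, 10.9 and 11.4 CPM with dox, a fall with dox by 1.58 (SE 0.322, edgeR adjusted p = 0.00346). The direction was thus opposite at these times, without overlap at either, and the dox effects differed by -2.43 (SE 0.36, edgeR adjusted p = 1.66e-04). From 48 to 120 h, *Igfbp6* fell by 1.38 with vehicle (SE 0.27, edgeR adjusted p = 0.00158) and by 3.82 with dox (SE 0.165, edgeR adjusted p = 8.17e-10). At 0 and 24 h it lay between 94.5 and 153 CPM, and in the Cdh23 and Mcam lines between 72.9 and 202 CPM with overlap between treatments.

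*Igfbp7* (ENSMUSG00000036256, chromosome 5 from 77349240 to 77408041) encodes a secreted protein with low affinity for IGFs. At 0 h it was 120.4, 131 and 144 CPM with vehicle, and at 24 h 15.6, 17.0 and 15.4 CPM. With dox it was 100.4, 105 and 120.4 CPM at 0 h and 23.8, 25.2 and 25.8 CPM at 24 h. It fell over this step by 3.01 with vehicle (SE 0.0789, edgeR adjusted p = 9.69e-13). With dox it fell by 2.12 on the log2 scale (SE 0.0752, edgeR adjusted p = 4.05e-11), and the times did not overlap under either treatment. At 48 h it was 163, 162 and 156 CPM with vehicle and 85.5, 95.4 and 96.2 CPM with dox. The dox libraries were above the vehicle libraries at 24 h, by 0.61 (SE 0.0755), and below them at 48 h, by -0.81 (SE 0.0658), and these effects differed by -1.43 (SE 0.0917, edgeR adjusted p = 8.68e-09).

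In the Cdh23 line, *Igfbp7* was 104, 109 and 166 CPM with vehicle and 29.6, 28.7 and 28.8 CPM with dox. It fell by 2.12 on the log2 scale (SE 0.186, edgeR adjusted p = 5.92e-05), without overlap. The Mcam line had 199.6, 182 and 263 CPM with vehicle and 131, 100 and 95.1 CPM with dox, a difference of -0.94 (SE 0.173, edgeR adjusted p = 0.00367), short of a 2-fold change. It became a call without vehicle replicate 1 (-1.01), vehicle replicate 2 (-1.06) or dox replicate 1 (-1.10). The line effects differed by 1.16 (SE 0.277, edgeR adjusted p = 0.0211). That call was lost without dox replicate 2 of the Cdh23 line (1.13), without vehicle replicate 2 (1.06) or dox replicate 1 (0.99) of the Mcam line, and in the fit with all groups of the table (1.14).

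Per length, the leading binding protein gene changed over differentiation. *Igfbp6* led at 0 h with 41.0% to 44.0% of the summed TPM of the 6 genes with vehicle and 45.0% to 47.8% with dox. *Igfbp7* followed with 34.6% to 39.8% in both treatments. At 24 h with vehicle *Igfbp5* had 53.9% to 59.4%, whereas with dox *Igfbp6* still led with 44.5% to 46.5% and *Igfbp5* had 34.3% to 35.8%. *Igfbp5* then held 57.5% to 67.5% in the iMyoD1 cultures at 48 h and 85.7% to 89.2% in the whole cultures at 120 h, over both treatments. In the fractions its share was spread from 25.9% to 67.2%, and it led in 9 of the 11 libraries, *Igfbp6* and *Igfbp3* leading in myotube-enriched dox replicates 1 and 3. In the Cdh23 line its share was 55.6% to 62.3% with vehicle and 22.8% to 33.5% with dox, where *Igfbp6* led with 32.5% to 46.4%. The Mcam line moved from 28.9% to 44.0% of *Igfbp5* with vehicle to 18.0% to 28.0% with dox.

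**Figure D2:**
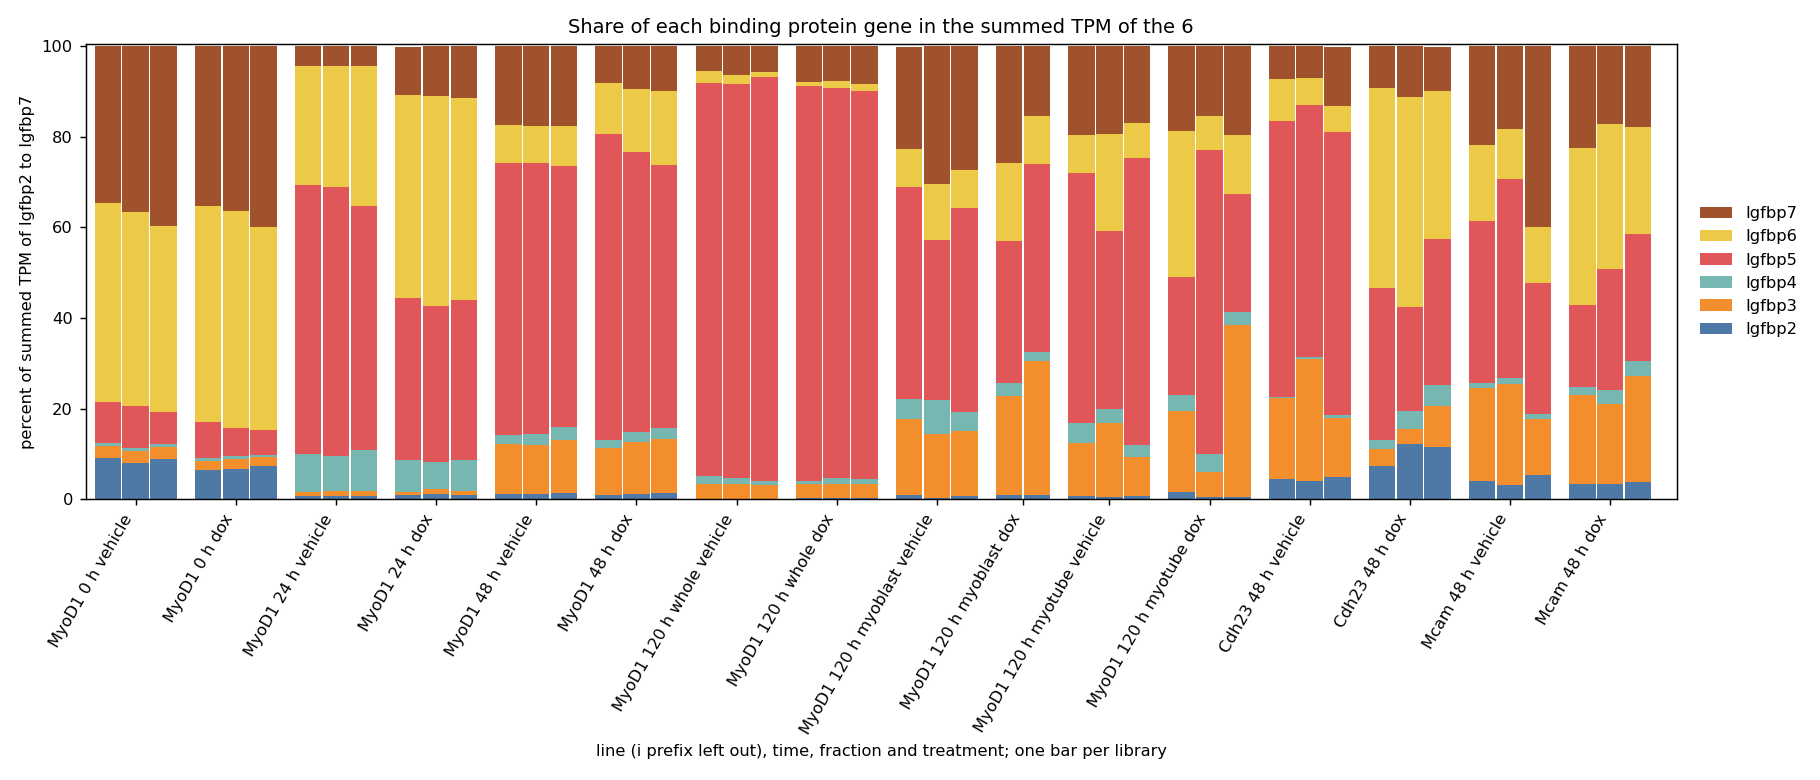
Percent of the summed TPM of the 6 binding protein genes that each gene took, with a bar for each of the 47 libraries in the order of line, time, fraction and treatment. Igfbp6 and Igfbp7 fill most of each bar at 0 h, and Igfbp5 fills between 85.7% and 89.2% in the whole cultures at 120 h.

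Summed over the 6 genes, binding protein TPM was between 387 and 624 in the libraries at 0 and 24 h and between 1310.2 and 1763 at 48 h in the iMyoD1 line. In whole cultures at 120 h it was 2677, 2673 and 2732 TPM with vehicle and 1404, 1390.5 and 1391 TPM with dox. The Cdh23 line had 2547, 2715 and 2298 TPM with vehicle and 819, 581 and 699 TPM with dox. In both of these comparisons the dox libraries lay below all vehicle libraries. The Mcam line, with 1771, 1974 and 1187 TPM against 1357, 1364 and 1219.8 TPM with dox, overlapped.

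The comparisons are now taken in turn. A gene was called when edgeR's quasi-likelihood test gave a p that stayed under 0.05 after Benjamini-Hochberg adjustment over all genes tested and the change exceeded 2-fold, and rose or fell is used for called genes. A difference between 2 dox effects was called on the adjusted p alone, whatever its size, for members and for all genes. DESeq2 gave the same side of the threshold and the same direction for each of the 205 tests of a member. The share of all tested genes called is given beside each count of members. Counts at an unadjusted p under 0.05 are description only. Most of them stand without the share of all genes at that limit, so nothing is concluded from them.

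In growth medium, the effect of dox in the iMyoD1 line was short of a 2-fold change for every member tested. At 0 h, 0 of the 9 members tested rose, beside 2.91% of the 13550 genes tested, and 0 fell, beside 1.36%. DESeq2 also called 0. All 9 missed the call on the size of the change alone, the largest edgeR adjusted p being 0.0368 for *Igfbp4* (-0.51, SE 0.18). By adjusted p alone 8 of 9 were lower, beside 18.7% of all genes, and 1 was higher, *Igf2r*, beside 19.1%. The 8 ran from -0.14 for *Igfbp6* to -0.93 for *Igf1*. The median over the members was -0.51, and over all genes tested 0.00. *Igf1* became a call without dox replicate 1 (-1.17) or vehicle replicate 2 (-1.08). Of 27 tested genes of the IGF signalling list, which runs from *Irs1* to *Eif4ebp1*, 0 were called by edgeR and 15 had an unadjusted p under 0.05. Of 7 tested modulators of the IGF axis, 0 were called and 4 had an unadjusted p under 0.05. Over all genes, 19.1% were higher and 18.7% lower already by adjusted p, so these list counts do not set the lists apart.

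With dox during the first 24 h of differentiation, 2 of 9 members fell, *Igfbp4* and *Igfbp5*, beside 5.13% of the 14078 genes tested, and 0 rose by edgeR or DESeq2, beside 8.02%. At an unadjusted p under 0.05 were 4. Of 9 tested modulators, 4 fell with them. *Stc2*, whose protein inhibits the protease PAPP-A, fell from a mean of 39.9 to 9.01 CPM, by 2.18 on the log2 scale (SE 0.0709). *Htra1*, the gene of a secreted protease, fell from 275 to 105 CPM, by 1.41 (SE 0.053). *Stc1* and *Pappa2* also fell, by 1.63 and 1.66. Of 27 signalling genes 0 were called, with 17 at an unadjusted p under 0.05. The dox effects at 24 and 0 h differed for 4 of 9 members: lower at 24 h for *Igf2r*, *Igfbp4* and *Igfbp5*, beside 20.7% of 14448 genes, and higher for *Igfbp7*, beside 13.3%. *Igf1* joined these calls without 0 h dox replicate 1 (1.02) or 0 h vehicle replicate 2 (0.93), and with no filter on low counts (0.80).

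At 48 h of differentiation in the iMyoD1 line, 0 of 10 members rose, beside 5.93% of the 13871 genes tested, and 0 fell, beside 8.46%. By unadjusted p under 0.05 there were 6, and DESeq2 called 0. The largest effects were those on *Igfbp6* (0.85) and *Igfbp7* (-0.81). Other genes of the axis did change at this time. *Stc2*, *Stc1*, *Adam12* and *H19* fell, by 2.96, 1.99, 1.82 and 1.09, *Htra1* rose by 1.08, and *Igf2bp2*, the gene of a protein that binds *Igf2* mRNA, rose by 1.09. The translation repressor gene *Eif4ebp1* fell from 256 to 83.6 CPM, by 1.63 (SE 0.0995), and *Grb10* fell by 1.39 from a mean of 0.855 CPM, and the other 26 signalling genes were not called. Markers moved as well. Of the 8 myotube genes 7 fell, their sum being 14176, 13529 and 12821 CPM with vehicle and 5273, 5351 and 5148 CPM with dox. *Acta1* had the highest CPM of them and no gene was at 0. All 5 proliferation genes fell, from 1038, 1013 and 1023 CPM to 310.0, 308 and 295 CPM, with *Top2a* the highest in CPM. Their part in the member values was not tested.

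The dox effects at 48 and 24 h differed for 5 of 10 members. The effect was higher at 48 h for *Igfbp3*, *Igfbp4*, *Igfbp5* and *Igfbp6*, beside 22.7% of 15080 genes, and lower for *Igfbp7*, beside 20.7%. At an unadjusted p under 0.05 were 5. *Igf1r* joined the lower ones without 48 h vehicle replicate 3 (-0.47), and *Igf2r* did so without 48 h dox replicate 1 (-0.40) and with no filter on low counts (-0.27). The times differ in batch as well as in hours, and dox effects were taken within each.

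In whole cultures at 120 h, 4 of 10 members fell with dox, beside 8.80% of the 13628 genes tested. These were *Igfbp3*, *Igfbp4*, *Igfbp5* and *Igfbp6*, with 0 members up by edgeR and by DESeq2, beside 7.32%, and 6 at an unadjusted p under 0.05. The remaining binding proteins gave -0.71 (SE 0.0932) for *Igfbp7* and 0.26 (SE 0.405) for *Igfbp2*, and the ligands and receptors were between -0.08 and 0.72. Among the modulators *Stc2* fell from 31.4 to 2.89 CPM, by 3.45 (SE 0.251), and *H19* from 4938 to 1968 CPM, by 1.34 (SE 0.103), and 3 of 10 fell in all, with *Pappa2*. Of 28 signalling genes 3 fell, *Eif4ebp1* by 2.63, *Irs2* by 1.61 and *Rptor* by 1.02, and *Pik3r3* rose by 1.44 (SE 0.0895). Of the myotube genes 2 of 8 fell. Their sum was 18081, 14946 and 15022 CPM with vehicle and 10055, 11736 and 11150.3 CPM with dox, and *Ttn* had the highest CPM. Of the proliferation genes 1 of 5 rose, from 209, 248 and 232 CPM to 482, 419 and 413 CPM in sum. *Top2a* had the highest CPM of these with vehicle and *Mki67* with dox, and none of either list was at 0. Their part in the result was not tested.

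Compared with 48 h, the dox effect at 120 h was lower for *Igfbp3*, *Igfbp4*, *Igfbp5* and *Igfbp6*, 4 of 10 members beside 17.2% of 14734 genes, and higher for *Igf1* and *Igf2*, 2 of 10 beside 16.8%. At an unadjusted p under 0.05 were 7. *Igf1* differed by 0.60 (SE 0.132, edgeR adjusted p = 0.00325). The difference for *Igf2* was 0.35 (SE 0.107, edgeR adjusted p = 0.0208) and was no longer called with no filter on low counts (0.29), without 48 h vehicle replicate 2 (0.33), 48 h dox replicate 2 (0.30) or replicate 3 (0.30), 120 h vehicle replicate 2 (0.33) or 120 h dox replicate 1 (0.33). *Igf1r* became a call without 48 h vehicle replicate 3 (0.66).

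**Figure D3:**
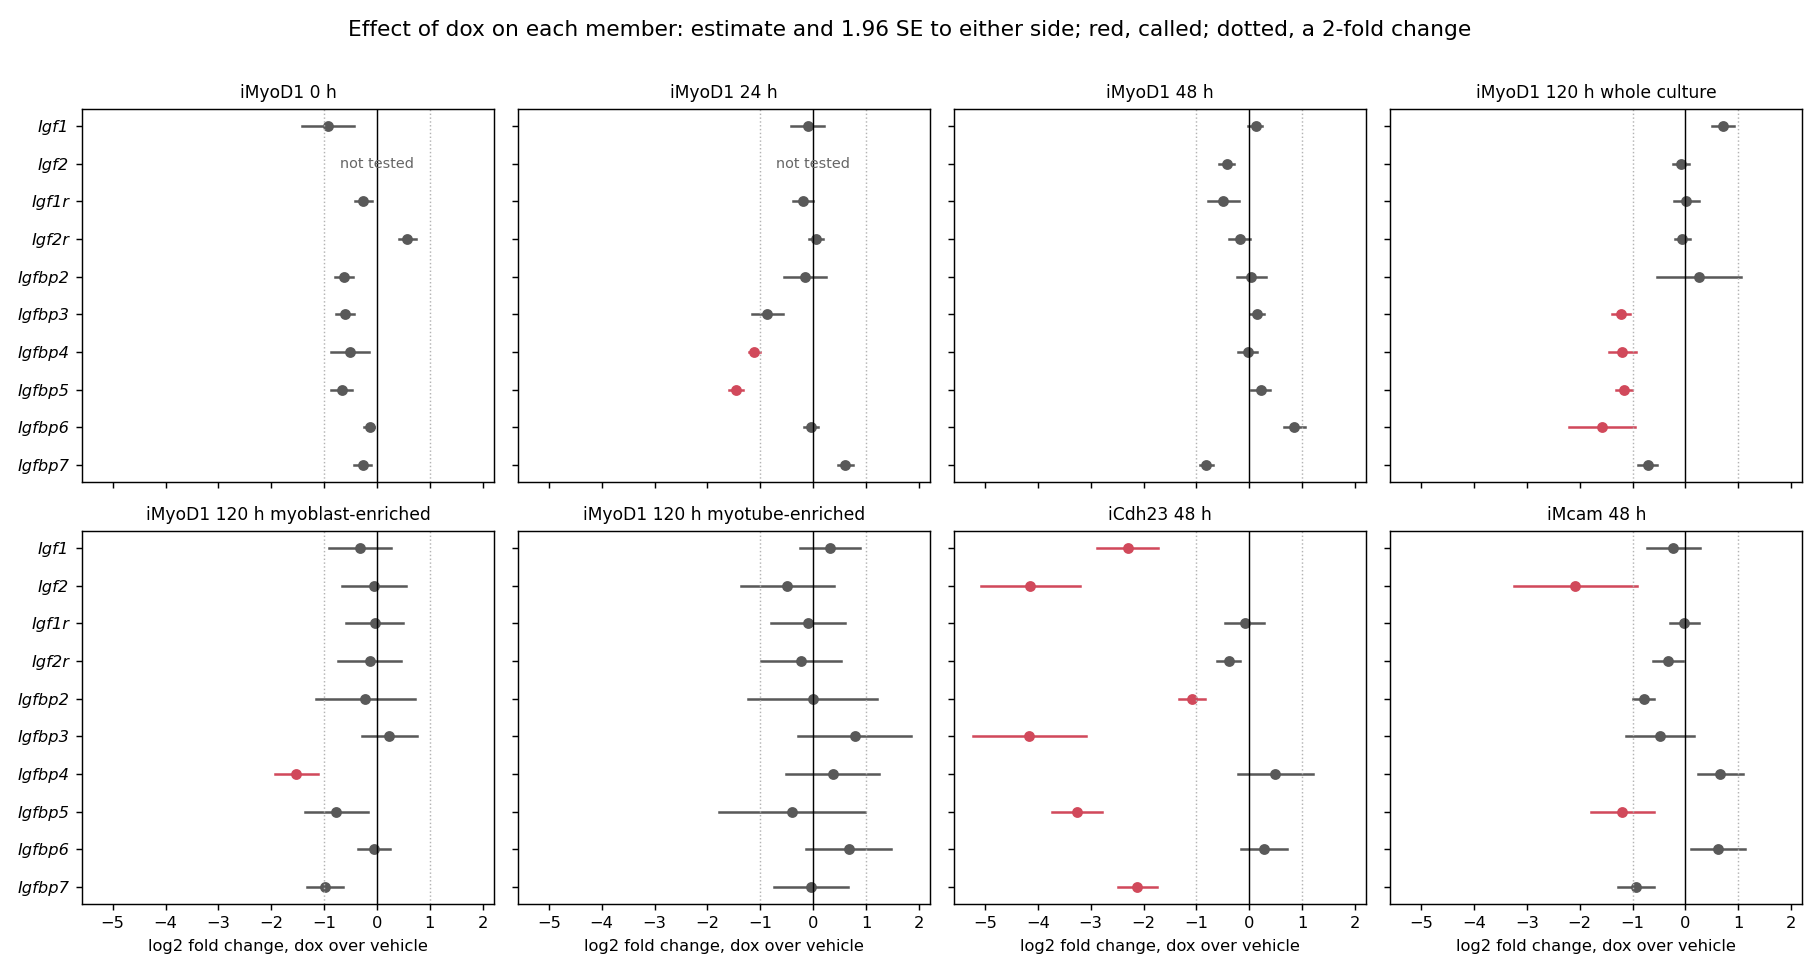
Log2 fold change of each member with dox over vehicle in the 8 comparisons, as the edgeR estimate with a 95% interval from its standard error. Called members are red and dotted lines mark a 2-fold change, and the largest falls are those of Igfbp3 (-4.16) and Igf2 (-4.15) in the Cdh23 line.

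The 120 h fractions gave fewer calls. In the myoblast-enriched fraction 1 of 10 members fell, *Igfbp4*, beside 1.82% of the 14249 genes tested. Of the members 0 rose by edgeR or DESeq2, beside 1.21% of genes, and 3 had an unadjusted p under 0.05. *Myog* was 1068, 1974 and 1367 CPM with vehicle and 488 and 602 CPM with dox, without overlap. Means of *Acta1* (3154 and 2141 CPM) and *Top2a* (253 and 157 CPM) were also lower with dox. The part of these markers was not tested. *Igfbp7* was 272, 301 and 336 CPM with vehicle and 169 and 134 CPM with dox, without overlap. Its difference of -0.99 (SE 0.172, edgeR adjusted p = 0.0298) was just short of a 2-fold change, and became a call without vehicle replicate 1 (-1.06). Over all genes, the counts of 172 higher and 260 lower became 0 and 0 without vehicle replicate 3, and also without dox replicate 2, where the spread is that of the vehicle libraries alone.

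In the myotube-enriched fraction 0 of 10 members rose and 0 fell with dox, beside 0% and 0% of 14112 genes by edgeR. At an unadjusted p under 0.05 were 0 members and 79 genes, and DESeq2 called 1 gene higher and 1 lower and 0 members. These are the dox libraries that stood apart from each other, *Igfbp5* being 944, 4196 and 1203 CPM and *Igfbp3* 302, 137 and 703 CPM. The effects of dox in the myotube- and myoblast-enriched fractions differed for 0 of 10 members in either direction, beside 0% higher and 0% lower of 15008 genes by edgeR. *Igfbp4* alone of the members had an unadjusted p under 0.05 in that comparison, 218 genes did so in all, and DESeq2 called 1 gene higher, 1 lower and 0 members.

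Between the fractions themselves, 0 of 10 members rose in the myotube-enriched material with vehicle, beside 0.570% of 14023 genes, and 0 fell, beside 0.0143%. By edgeR 4 members had an unadjusted p under 0.05, and DESeq2 called 0. The 4 were *Igf2*, *Igfbp3*, *Igfbp4* and *Igfbp7*, with effects of 0.83 (SE 0.36), -0.71 (SE 0.233), -1 (SE 0.383) and -0.79 (SE 0.305) on the log2 scale and edgeR adjusted p between 0.205 and 0.311. Replicate numbers paired the vehicle fractions, and with the replicate number as a block the genes called went from 80 higher and 2 lower to 322 and 158, while the member calls remained at 0. Leaving out libraries moved these gene counts from 0 to 206 higher and from 0 to 27 lower. With dox, 0 of 10 members were called in either direction, beside 0% and 0% of 14291 genes by edgeR, with 0 members and 183 genes at an unadjusted p under 0.05, and DESeq2 called 8 genes higher, 1 lower and 0 members. Of the 8 myotube genes, *Myh3* and *Ttn* rose in the myotube-enriched vehicle fraction. Sums over the 8 were 13801, 14099.8 and 21449 CPM against 6150.2, 9386 and 8402 CPM. *Acta1* had the highest CPM of them and none was at 0. Not all markers followed the labels, since *Myog* was 982, 427 and 1720 CPM against 1068, 1974 and 1367 CPM. *Des*, of the myoblast list, had a mean of 2179 CPM against 1004 CPM. Other markers followed the labels in their means. *Myod1*, also of the myoblast list, had 287 CPM against 320.1 CPM, and *Top2a*, of the proliferation list, 117 CPM against 253 CPM. *Mki67*, of the same list, was 209.5, 35.8 and 83.7 CPM against 348, 104 and 215 CPM. *Myod1* and *Mki67* overlapped between the fractions. Neither *Myog* nor *Des* was called, and the part of the markers in the member values was not tested.

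The whole cultures at 120 h lay outside the range of the fractions for many genes. With vehicle, all whole-culture libraries were above every fraction library for *Igf1r*, *Igf2r* and *Igfbp5* and below for *Igfbp2*, *Igfbp3* and *Igfbp6*. Over 12754 genes whose mean reached 1 CPM, the same held for 22.3% above and 23.8% below. With dox, *Igf1*, *Igf2*, *Igf1r* and *Igf2r* were above and *Igfbp2*, *Igfbp3*, *Igfbp4*, *Igfbp6* and *Igfbp7* below, against 23.0% and 27.0% of 12901 genes. Whole cultures and fractions came in different tables and the fractions were trypsinized and strained, and these cannot be told apart.

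The Cdh23 line showed the most calls with dox. In it 6 of 10 members fell, *Igf1*, *Igf2*, *Igfbp2*, *Igfbp3*, *Igfbp5* and *Igfbp7*, beside 17.0% of the 14227 genes tested, and 0 rose by edgeR or DESeq2, beside 13.0%. At an unadjusted p under 0.05 were 7, and the median over the members was -1.60 against 0.00 over all genes. *Stc1* fell from 134 to 2.01 CPM, by 6.06 (SE 0.234), and *Adam12*, the gene of a protease that cleaves binding proteins, from 53.7 to 1.48 CPM, by 5.18 (SE 0.361). In all 4 of 9 modulators fell, with *Stc2* and *H19*, and 3 rose. Among those that rose was *Pappa2*, by 1.38 (SE 0.322), from 0.362 to 0.95 CPM. Of 27 signalling genes *Irs1*, which couples the receptor to PI3 kinase, fell by 2.26 (SE 0.173) and *Eif4ebp1* by 3.04 (SE 0.43), while *Irs2* rose by 1.20 and *Pik3cb* by 1.13. *Igf2bp2* rose from 11.4 to 37.2 CPM, by 1.70 (SE 0.115).

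In the Mcam line 2 of 10 members fell, *Igf2* and *Igfbp5*, beside 9.85% of the 13730 genes tested, and 0 rose by edgeR or DESeq2, beside 6.99%, with 5 at an unadjusted p under 0.05. *Stc2*, *Adam12*, *Pappa*, *H19* and *Stc1* fell, 5 of 10 modulators, *Adam12* from 82.8 to 9.15 CPM, by 3.13 (SE 0.33). Of 27 signalling genes *Eif4ebp1* fell by 1.59 and 0 rose by edgeR, with 16 at an unadjusted p under 0.05. The dox effects were higher in the Mcam than in the Cdh23 line for 4 of 10 members, *Igf1*, *Igfbp3*, *Igfbp5* and *Igfbp7*, beside 7.61% of 14552 genes, and lower for 0 by edgeR or DESeq2, beside 3.03%, with 5 at an unadjusted p under 0.05. In the fit with all groups of the table the 4 became 2, *Igf1* and *Igfbp3*.

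Markers of differentiation and of proliferation moved with dox in both lines. All 8 myotube genes fell in the Cdh23 line, their sum being 5326, 7321 and 9333 CPM with vehicle and 37.1, 42.7 and 128 CPM with dox. All 8 fell in the Mcam line too, from 3968, 5833 and 9749 CPM to 523, 574 and 1649 CPM. Replicate 3 had the highest sum in each of these groups, and *Acta1* was the gene with the highest CPM in all 4. The 5 proliferation genes fell in both lines. Their sums went from 640.0, 740.2 and 979 CPM to 30.1, 17.9 and 32.7 CPM in the Cdh23 line. In the Mcam line they went from 629.7, 612 and 777 CPM to 104, 56.3 and 114 CPM. *Top2a* had the highest CPM of these genes in both lines. No gene of either list was at 0 in these groups, and their part in the member results was not tested.

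The comparisons of times in the iMyoD1 line share groups with each other and with the dox comparisons, so their values are given side by side. From 0 to 24 h with vehicle, 2 of 9 members rose, *Igfbp4* and *Igfbp5*, beside 9.49% of the 13632 genes tested, and 4 fell, *Igf1*, *Igfbp2*, *Igfbp3* and *Igfbp7*, beside 16.6%. *Igf1* fell by 1.02 (SE 0.188, edgeR adjusted p = 2.34e-04), close to the 2-fold limit. That call was lost without 0 h vehicle replicate 3 (-0.83) or 24 h vehicle replicate 3 (-0.96). It was also lost with no filter on low counts (-1) and with the replicate number as a block (-1). With dox, *Igfbp4* and *Igfbp5* rose, 2 of 9 beside 5.19% of 13943 genes, and *Igfbp2*, *Igfbp3* and *Igfbp7* fell, 3 of 9 beside 11.6%. Among signalling genes with vehicle, *Irs1* fell from 244 to 26.7 CPM, or fell by 3.16 on the log2 scale (SE 0.0737), and *Eif4ebp1* rose from 82.5 to 321 CPM, by 2.00 (SE 0.0642). The modulators *Stc2* and *Stc1* rose by 3.62 and 3.76 and *Adam12* fell by 5.45. Over this step the 5 proliferation genes fell, from 2315, 2316 and 2298 CPM to 634, 581 and 589 CPM in sum, and 6 of 6 tested myotube genes rose, from at most 2.35 CPM to at most 13.6 CPM in sum.

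From 24 to 48 h, 7 of 10 members rose with vehicle, beside 19.3% of the 14017 genes tested, and 0 fell by edgeR or DESeq2, beside 11.1%, with 10 at an unadjusted p under 0.05. *Igf1*, *Igf2*, *Igf2r*, *Igfbp2*, *Igfbp3*, *Igfbp5* and *Igfbp7* were the 7. *Igfbp3* rose by 4.79 (SE 0.0847, edgeR adjusted p = 1.58e-14), *Igf1* by 4.83 (SE 0.0865, edgeR adjusted p = 1.79e-14) and *Igfbp7* by 3.33 (SE 0.0653, edgeR adjusted p = 4.30e-14). With dox the same 7 rose, beside 17.0% of 14953 genes, and 0 fell by edgeR or DESeq2, beside 11.8%, with 9 at an unadjusted p under 0.05. There *Igfbp3* rose by 5.77 (SE 0.116) and *Igf1* by 5.01 (SE 0.0842). All 8 myotube genes rose over this step under both treatments, with vehicle from sums of 12.8, 12.3 and 13.6 CPM at 24 h. *H19* rose from 43.2 to 3797 CPM with vehicle, by 6.46 (SE 0.0933), and *Adam12* from 1.08 to 58.5 CPM, by 5.77 (SE 0.126). The part of the batch and of these markers was not tested.

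From 48 to 120 h in whole cultures with vehicle, *Igf2* and *Igfbp5* rose, 2 of 10 beside 11.7% of the 13786 genes tested, and *Igfbp2* and *Igfbp6* fell, 2 of 10 beside 18.1%. With dox, 4 rose, *Igf1*, *Igf2*, *Igf1r* and *Igf2r*, beside 15.1% of 14167 genes, and 4 fell, *Igfbp2*, *Igfbp3*, *Igfbp4* and *Igfbp6*, beside 21.3%. All the members that rose with dox were thus ligands or receptors and all that fell were binding proteins. This division did not hold with vehicle, where the binding protein gene *Igfbp5* rose. The call of *Igf2r* with dox was lost without 48 h dox replicate 3 (0.96). *Igfbp3* fell by 2.34 with dox (SE 0.0877, edgeR adjusted p = 2.98e-10) and changed by -0.97 with vehicle (SE 0.0748, edgeR adjusted p = 6.02e-06). *Igfbp2* fell by 3.03 with vehicle (SE 0.26) and by 2.82 with dox (SE 0.216). Of 28 signalling genes 9 rose and 1 fell with vehicle, and 11 rose and 3 fell with dox. *Pik3r2* fell under both, by 1.63 and 2.14, and *Pdpk1* rose by 1.49 and 1.78. *Insr*, the insulin receptor gene, rose from 22.9 to 115 CPM with vehicle, by 2.35 (SE 0.138), and from 34.7 to 87.8 CPM with dox, by 1.34 (SE 0.1). Of the 5 proliferation genes 5 fell with vehicle, whereas with dox 1 rose and 0 fell by edgeR, with 4 at an unadjusted p under 0.05.

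Over the 16 group means of log2(CPM + 1), the members were most alike for *Igf1* and *Igf2* (Pearson r = 0.95), *Igf2* and *Igf2r* (0.92) and *Igf1* and *Igfbp3* (0.89), and least for *Igf2r* and *Igfbp6* (-0.69). These are descriptions over groups that share lines and tables. Among 11082 genes that reached a group mean of 10 CPM, those most like *Igf2* were the muscle genes *Tnnt3* (0.990), *Casq2* (0.989) and *Myl1* (0.989). *Igdcc4* (0.982), *Ror1* (0.980) and *Piezo2* (0.969) were most like *Igf1*. For the receptors they were *Utrn*, *Pkn2* and *Erbin* (0.911 to 0.905) for *Igf1r* and *Msi2*, *4833439L19Rik* and *Slc11a2* (0.966 to 0.952) for *Igf2r*. For the binding proteins, the nearest genes were *Bahcc1* (0.911), *Eml1* and *Ctxn1* for *Igfbp2*, *Tril* (0.973), *Fndc1* and *Spry2* for *Igfbp3*, and *Phyhd1* (0.880), *Sec62* and *Gadd45a* for *Igfbp4*. They were *Tpt1-ps3* (0.965), *Fam53b* and *Cops4* for *Igfbp5*, *Sap30l* (0.971), *Lrfn4* and *Lzts2* for *Igfbp6*, and *Ccn1* (0.958), *A4galt* and *Olfml3* for *Igfbp7*.

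Igf1-202 held between 92.0% and 98.9% of *Igf1* counts in every group from 48 h. Igf2-201 held between 78.4% and 100% of *Igf2* counts in each of those groups, and the noncoding transcript Igf2-208 up to 20.7%. Single libraries varied more, and in 1 myotube-enriched dox library Igf2-201 held 26.9%. In whole cultures at 120 h, Igf2-201 held 98.6% with vehicle and 100% with dox. *Igfbp2* divided otherwise in whole cultures at 120 h, where Igfbp2-202 held 41.1% with vehicle (0% to 69.2% in single libraries) and 74.7% with dox (60% to 85.5%), which overlap, on 103 and 142 counts. Salmon's division of reads among transcripts that share exons is an estimate. Since the strand of the libraries is not stated, counts of members with a gene on the opposite strand are uncertain where they overlap. The antisense genes *Igf1os* and *Igf2os* had group means of at most 0.572 and 8.60 CPM, and *Airn*, opposite *Igf2r*, between 0.917 and 14.5 CPM. *Polr2b*, opposite *Igfbp7*, had group means between 97.9 and 197 CPM, and its part in the *Igfbp7* counts was not tested.

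All 10 members had at least 1 promoter window in RefSeq's table for GRCm38.p6, 14 windows in all, each from 250 bases before to 50 bases after a start. Since MyoD1 binds the E-box, CANNTG, the letters CANNTG and their form CAGCTG, which is one of the CANNTG matches, were searched on both strands. CANNTG was in 10 of the 14 windows (71.4%) and in 72.3% of 32851 windows of all genes, and CAGCTG in 1 of 14 (7.14%) and in 16.3%. Some of the genes with the largest falls in the Cdh23 line are shown by their upstream bases, 5′ to 3′, with CANNTG in capitals, because these members moved together there. They are chr1:72874866-72875115 (minus strand) for *Igfbp5*, chr11:7213924-7214173 (minus strand) for *Igfbp3*, chr10:87860861-87861110 (plus strand) for *Igf1* and chr7:142657497-142657746 (minus strand), the window at the start of Igf2-201, for *Igf2*.
Igfbp5: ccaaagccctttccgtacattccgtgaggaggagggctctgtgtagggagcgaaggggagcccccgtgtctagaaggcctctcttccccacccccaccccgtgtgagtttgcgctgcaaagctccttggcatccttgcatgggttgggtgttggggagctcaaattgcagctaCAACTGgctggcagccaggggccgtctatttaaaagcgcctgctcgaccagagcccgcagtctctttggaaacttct
Igfbp3: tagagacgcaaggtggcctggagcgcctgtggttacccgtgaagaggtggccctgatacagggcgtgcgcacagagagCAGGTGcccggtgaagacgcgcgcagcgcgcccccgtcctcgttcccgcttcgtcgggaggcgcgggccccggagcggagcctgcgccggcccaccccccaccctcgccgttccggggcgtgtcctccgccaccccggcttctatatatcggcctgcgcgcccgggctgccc
Igf1: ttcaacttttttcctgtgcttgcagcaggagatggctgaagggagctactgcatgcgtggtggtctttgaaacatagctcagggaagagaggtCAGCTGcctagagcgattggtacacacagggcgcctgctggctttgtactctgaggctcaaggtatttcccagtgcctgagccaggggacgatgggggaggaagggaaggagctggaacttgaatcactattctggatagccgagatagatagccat
Igf2: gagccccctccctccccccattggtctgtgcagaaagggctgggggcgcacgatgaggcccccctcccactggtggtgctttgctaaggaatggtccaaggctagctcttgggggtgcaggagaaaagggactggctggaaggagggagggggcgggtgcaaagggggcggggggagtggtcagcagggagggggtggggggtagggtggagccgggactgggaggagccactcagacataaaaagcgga
The match of *Igfbp5* begins at position -77 from the start, that of *Igf1* at -157 is the form CAGCTG, in a window with no GENCODE transcript start within 50 bases, and *Igfbp3* has CAGGTG at -172 and a further match that begins at -1 and runs past the bases shown. The *Igf2* window holds none of these letters, while other starts of the gene do, Igf2-203 at -213 and -161. A match is a description of letters and not a site, and binding was not analysed here.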

How the data were processed

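The authors made the values before they deposited them: they processed reads with nf-core/rnaseq and salmon, and the tables hold salmon's estimated counts per transcript. Transcripts were summed per gene (109617 transcripts, 45706 genes), and sums were rounded for the tests. Genes were tested within a table, or across tables for the steps in time, with edgeR 4.0.16 (quasi-likelihood, TMM) after its filter on low counts, and with DESeq2 1.42.0 as an alternative, in R 4.3.3. The code was tested on simulated data: of 200 genes changed 4-fold, edgeR recovered 199 at 48 h, 193 in the myoblast-enriched fraction, and 56 for the difference between the fractions' dox effects. Transcript lengths are from GENCODE vM21, and 98.72% of transcripts had one.

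The members were named by symbol, and they and the lists were chosen with earlier results of these data known. Genes of the lists are named from the at most 5 called genes with the largest change in each list and comparison of whole cultures.

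Replicate numbers were checked as pairs. Among comparisons with 3 same-number pairs, residuals of every pair correlated over 0.1 only for dox in the Mcam line (0.362, 0.227 and 0.419) and between the vehicle fractions (0.413, 0.117 and 0.189). Exact intervals cover counting error only. The alternatives were scaling, filter, all groups in 1 fit, a replicate block and leaving out libraries.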

Additional observations from a re-analysis of the deposited data

Results flagged for a closer look

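These results were singled out because the effect of dox on a member differed between 2 times or 2 lines in a test of that difference by edgeR, after adjustment over all genes. Values are differences between log2 fold changes.

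Between 24 and 0 h, the effect was lower at 24 h for *Igfbp4* (-0.66), *Igf2r* (-0.57) and *Igfbp5* (-0.83), and higher for *Igfbp7* (0.84). Of 14448 genes, 20.7% were called lower and 13.3% higher. Between 48 and 24 h, it was higher at 48 h for *Igfbp4* (1.08), *Igfbp3* (1.02), *Igfbp6* (0.90) and *Igfbp5* (1.67), and lower for *Igfbp7* (-1.43). Those times also differ in batch. Of 15080 genes, 22.7% were called higher at 48 h and 20.7% lower.

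Between 120 h in whole cultures and 48 h, the effect was lower at 120 h for *Igfbp4* (-1.16), *Igfbp3* (-1.36), *Igfbp6* (-2.43) and *Igfbp5* (-1.38), and higher for *Igf1* (0.60) and *Igf2* (0.35). Of 14734 genes, 17.2% were called lower and 16.8% higher. The *Igf2* call was lost in several of the alternatives given above. Between the Mcam and Cdh23 lines, the effect was higher in the Mcam line for *Igf1* (2.06), *Igfbp3* (3.66), *Igfbp5* (2.05) and *Igfbp7* (1.16). Of 14552 genes, 7.61% were called higher and 3.03% lower. The calls of *Igfbp5* and *Igfbp7* were lost in the fit with all groups of the table.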

How the results depend on the processing

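Of the 205 member effects, DESeq2 and RLE scaling left 205 on the same side of the thresholds. The fit with all groups of the same tables made 4 weaker. With no filter on low counts, 2 became stronger and 2 weaker, and with a replicate block 3 and 1. The block added *Igfbp7* for dox in the myoblast-enriched fraction (-1.06), *Igf2r* between 48 and 24 h (-0.25) and *Igf2* between the Mcam and Cdh23 lines (1.81), and ended *Igf1* from 0 to 24 h with vehicle (-1), and changed no other member call. For dox in the myoblast-enriched fraction, both of the 2 same-number pairs correlated over 0.1 (0.431 and 0.3), too few to show that the numbers pair these libraries. Leaving out each library kept 1463 results, made 11 stronger and 20 weaker, and no result was reversed. Where this left 1 myoblast-enriched dox library, it was assumed to vary like the other groups. Leaving out replicate 3 of every group of the Cdh23 and Mcam lines, an alternative chosen after seeing the data, kept 30 of 30. The cause of any change was not tested.

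For dox in the myoblast-enriched fraction, 172 genes called higher became 262 with DESeq2, 365 without the filter, 1 with all groups, 429 with the replicate block and 0 to 177 without a library. The 260 called lower became 462, 591, 0, 679 and 0 to 341 in that order. The 1 member called lower became 0 with all groups, 2 with the replicate block and 0 to 2 without a library. In the myotube-enriched fraction, 0 and 0 genes became 1 and 1 with DESeq2, and 1 was called lower without the filter. Between the vehicle fractions, 80 genes higher became 410 with DESeq2, 322 without the filter, 123 with all groups, 322 with the replicate block and 0 to 206 without a library. The 2 lower became 71, 43, 16, 158 and 0 to 27 in that order. Between the dox fractions, DESeq2 gave 8 higher and 1 lower where edgeR gave 0, and for the difference between the fractions' dox effects it gave 1 and 1.

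In the Mcam line, 2 members called lower became 1 with all groups and 1 to 3 without a library. From 0 to 24 h with dox, 723 genes higher became 1085 without the filter. At 0 h, 0 members called lower became 0 to 1 without a library. For the difference between 24 and 0 h, 1 member higher became 2 without the filter and 1 to 2 without a library. Between 48 and 24 h, 1 member lower became 2 without the filter, 2 with the replicate block and 1 to 2 without a library. Between 120 and 48 h, 2 members higher became 1 without the filter and 1 to 3 without a library. Between the Mcam and Cdh23 lines, 1107 genes higher became 337 with all groups and 681 to 1229 without a library. The 441 lower became 708 with DESeq2, 36 with all groups and 236 to 483 without a library, and the 4 members higher became 2 with all groups.

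With RLE factors, 8 of 160 member levels moved by more than their SD. Ordering members by CPM in place of TPM changed the order in all 16 groups. Depth limits *Igf2* at 0 and 24 h. The part of the spread between libraries in the few calls of the fractions was not tested.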
